A study of Mus musculus with 15 samples.

Results

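Fatty acid uptake and oxidation was followed through 34 genes in mammary tumours of female MMTV-PyMT mice. The members were the probes whose transcript identifier on the array belonged to a fixed list of genes. The list was set by gene name, with earlier results of these data known. All 34 genes had a probe, 45 probes in all, out of 19752 gene symbols on the array, and all 34 entered the tests. In MMTV-PyMT mice a mammary tumour virus promoter drives a viral oncogene in the mammary epithelium, so carcinomas arise in the gland. The study compared 3 groups at the end of treatment with tumours taken before it. The T0 group (n = 4) was taken before any treatment, and its labels name mammary tumours of females without naming the transgene. The vehicle group (n = 3), the B20 group (n = 4) and the nintedanib group (n = 4) were MMTV-PyMT tumours whose treatment began at 7 weeks of age. B20, given as B20-4.1.1, is an antibody that blocks VEGF, a growth factor that vessels depend on. It was injected into the peritoneum at 5 mg/kg, 2 times per week. Nintedanib is a small molecule that blocks the kinases of VEGF receptors, FGF receptors and PDGF receptors. It was given by gavage at 85 mg/kg per day. The age at T0 and the length of treatment are not given in the sources used here, and T0 replicate 4 is labelled both as untreated and as vehicle.

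Cells take up fatty acids through surface proteins such as CD36, carry them in the cytosol on binding proteins, and join them to coenzyme A. Carnitine transferases pass long chains into the mitochondrion, where a repeated cycle of dehydrogenation, hydration, a further dehydrogenation and thiolysis shortens them, and peroxisomes shorten very long and branched chains. Fat cells, heart and muscle express several of these genes at high levels, and a mammary tumour grows inside a fat pad that lies on muscle. In such whole-tissue samples, fewer cells of a type and less RNA per cell cannot be told apart.

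A gene's level is given here as the log2 spot signal minus the 75th percentile of its array, so that 0 is the level of a fairly bright probe and each unit is a factor of 2. Of the 34 genes, 33 were well above background on all 15 arrays, and Acsl6 was on 4. On 14 arrays 53.4% to 68.1% of all probes were well above background, and on T0 replicate 3 it was 84.2%. The T0 arrays lay on 2 slides of their own, with 2 arrays each, and were scanned and read in another round than the 11 arrays of the end of treatment, so slide, scan and T0 cannot be told apart. All 6 luminal epithelial markers were well above background on every array, and their summed level, which follows its brightest member, stayed between 8.82 and 9.38. Single luminal markers went both ways against T0. With nintedanib they ran from −0.76 for Elf5, which passed as lower (limma, adjusted p = 0.0125), to 0.73 for Krt8, which did not pass.

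Fat and muscle content were marked by Adipoq, a hormone gene of fat cells, and Ckm, the creatine kinase gene of skeletal muscle. In replicate order, Adipoq stood at 6.97, 6.60, 5.16 and 4.68 on the T0 arrays and at −2.42, 0.30 and 1.24 with vehicle. It stood at 3.67, 3.15, 3.1 and 0.99 with B20 and at 0.81, 1.09, 2.88 and 3.98 with nintedanib. Every T0 array thus lay above every array of the end of treatment, and the vehicle arrays were mostly the lowest. Ckm was 5.58, 3.81, 1.01 and 0.12 on the T0 arrays, −2.01, −1.93 and 0.39 with vehicle, 6.18, 0.15, 2.26 and −1.35 with B20, and 0.15, 0.60, 2.96 and −1.48 with nintedanib. The Ckm levels overlapped between all groups and were highest in T0 replicates 1 and 2 and B20 replicate 1. Of 10 adipocyte markers, 10 passed the test as lower in vehicle than in T0, 9 in nintedanib and 8 in B20 (limma, adjusted p under 0.05). The summed level of these markers ran from 8.35 to 10.30 in T0, from 2.11 to 5.84 with vehicle, from 4.96 to 7.55 with B20 and from 5.19 to 8.07 with nintedanib. None was at or near background in T0, and only Lep, the leptin gene, failed to clear background on each of the vehicle arrays. Of 13 skeletal muscle markers, 13 were lower in each group than in T0 and none passed. Their summed level ran from 6.06 to 11.44 in T0, 3.65 to 6.80 with vehicle, 4.43 to 10.88 with B20 and 4.07 to 8.04 with nintedanib.

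Markers of other cells also differed from T0. All 5 brown fat markers had lower means in each group and none passed. Their median difference was −3.41 in vehicle, −3.1 in nintedanib and −2.38 in B20. Elovl3, which these medians include, was well above background on 3 arrays, all T0. It met the filter through T0 alone, so its direction was fixed in advance. The summed level of the brown fat markers was 9.36 and 7.18 on T0 replicates 1 and 2 and 4.70 and 5.0 on replicates 3 and 4. That sum ran from 3.49 to 3.93 with vehicle, 3.73 to 6.65 with B20 and 3.22 to 5.12 with nintedanib. Elovl3 was at background on every end-of-treatment array, and Ucp1 on the vehicle arrays. Of 7 endothelial markers, 2 passed as lower in vehicle, 2 in nintedanib and 5 in B20, the last being Tie1, Cdh5, Tek, Cldn5 and Pecam1. Of 4 macrophage markers tested none passed. The part of these cells in the differences below was not tested.

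**Figure D1:**
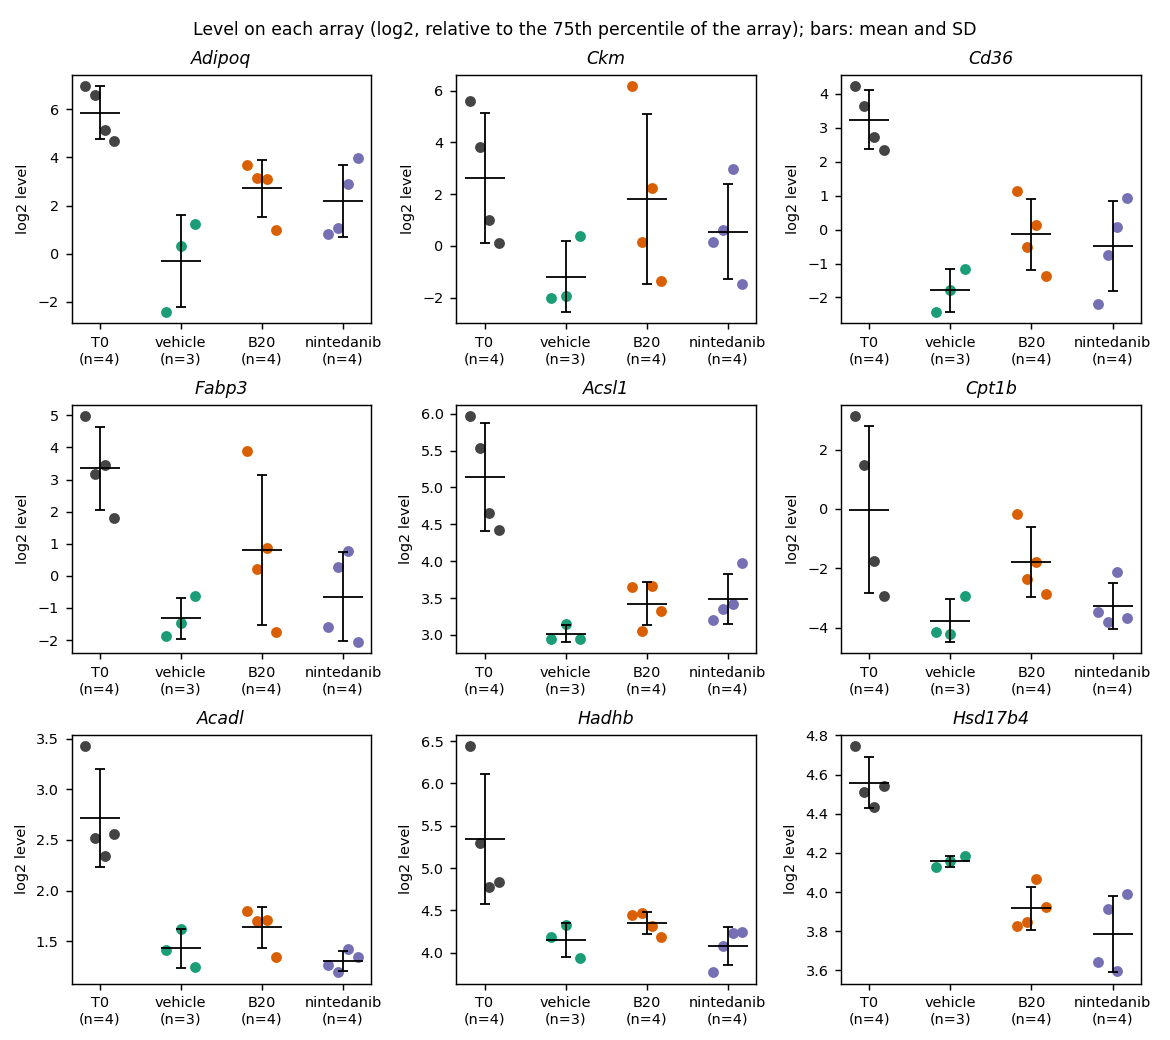
Levels on each of the 15 arrays (y axis, log2 relative to the 75th percentile of the array) by group (x axis) for Adipoq, Ckm and 7 fatty acid genes. Points are arrays in replicate order, the long bar is the mean and the whiskers are 1 SD. Cd36, Acsl1, Acadl, Hadhb and Hsd17b4 have all T0 arrays above all others.

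Against T0, 12 of the 34 fatty acid genes passed in at least 1 end-of-treatment group, Acsl4 as higher and the other 11 as lower. With vehicle, 29 of the 34 genes had a lower mean than T0, with a median difference of −0.54 against 0.04 over all 28026 genes tested. The 7 that passed were all lower: Cd36, Fabp3, Acsl1, Acadl, Hadhb, Etfdh and Acot2. Over all genes tested, 4.92% passed, 2.13% as lower. With nintedanib, 29 genes were lower with a median of −0.78 (0.01 over all genes), and 11 passed, all lower. They were Cd36, Fabp3, Acsl1, Acadl, Hadhb, Etfdh, Acot2, Cpt2, Decr1, Etfa and Hsd17b4, beside 11.4% of all genes, 4.62% as lower. With B20, 29 genes were lower with a median of −0.58 (0.08 over all genes), and 7 passed. Of these Cd36, Acsl1, Acadl, Etfdh, Acot2 and Hsd17b4 were lower and Acsl4 was higher, beside 9.51% of all genes, 5.77% as higher and 3.73% as lower. These 3 comparisons share the T0 arrays, and 5 genes passed in each: Cd36, Acsl1, Acadl, Etfdh and Acot2. The other 22 genes passed in none. Among them Acsl6, counted as lower in each group, was well above background only on 3 T0 arrays and B20 replicate 1. It met the filter through the T0 arrays, so its direction in vehicle and nintedanib was fixed in advance.

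The T0 arrays did not contribute equally. T0 replicate 1 held the highest of the 15 levels for 23 of the 34 genes, and its median excess over the mean of the end-of-treatment arrays was 1.38. That excess was 0.64 on T0 replicate 2, 0.22 on replicate 3 and 0.25 on replicate 4. Replicates 1 and 2 share slide 1, and for 17 genes both lay above replicates 3 and 4, while for 5 genes both lay below. The summed adipocyte, brown fat and muscle markers were also higher on replicates 1 and 2. For the adipocyte markers the sums were 10.30 and 9.98, against 8.35 and 8.37 on replicates 3 and 4. With the slide 1 arrays left out, 3 genes passed in vehicle, 4 in nintedanib and 1 in B20, while over all genes 216, 1054 and 460 passed in place of 1380, 3207 and 2664. In that fit 25, 26 and 23 of the 34 genes were lower than T0, with medians of −0.31, −0.36 and −0.16. With the slide 2 arrays left out, 17, 18 and 16 passed, while over all genes 3334, 5033 and 4281 did. Each end-of-treatment group had the groups fully apart for some genes: 12 in vehicle, 14 in nintedanib and 8 in B20, all lower, beside 16.7%, 16.8% and 15.5% of all genes in either direction and 6.96%, 7.46% and 6.21% as lower. Every T0 array lay above every end-of-treatment array for 7 genes: Cd36, Acsl1, Acadl, Hadhb, Etfdh, Acot2 and Hsd17b4. Leaving out single arrays moved the count for vehicle to 3 without T0 replicate 1, vehicle replicate 1 or vehicle replicate 3, to 4 without vehicle replicate 2 and to 11 without T0 replicate 4. It moved the nintedanib count to 6 without nintedanib replicate 1 and the B20 count to 4 without B20 replicate 4. Over all genes the vehicle count fell too, from 1380 to 522, without T0 replicate 1. Counts over all genes for the other single arrays named here are not reported.

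**Figure D2:**
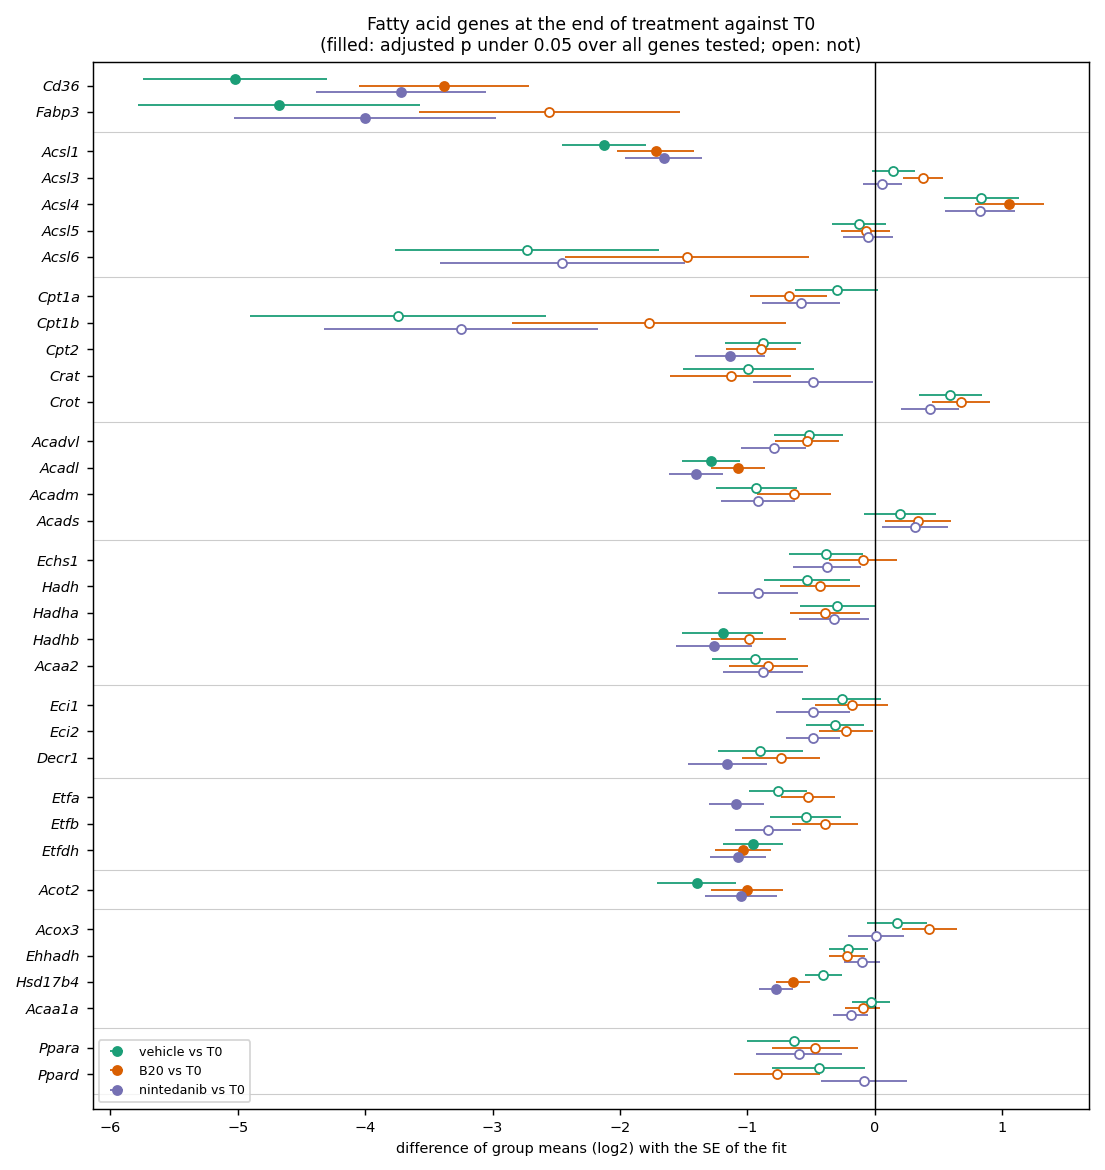
Difference of each end-of-treatment group from T0 (x axis, log2, with the SE of the fit) for the 34 genes, in blocks by role from uptake at the top to nuclear receptors at the bottom. Filled points passed at an adjusted p under 0.05 over all genes tested. Cd36 and Fabp3 lie farthest to the left, and Acsl4 and Crot lie to the right of 0 in each group.

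Both genes of uptake and binding fell in at least 1 group. Cd36 encodes the surface translocase that takes up long-chain fatty acids. Its level was 4.23, 3.65, 2.71 and 2.34 on the T0 arrays, −2.43, −1.77 and −1.16 with vehicle, 1.15, −0.50, 0.13 and −1.35 with B20, and −2.21, −0.75, 0.07 and 0.94 with nintedanib. The T0 arrays lay above all others, and the treated groups overlapped with vehicle. The difference from T0 was −5.02 ± 0.72 with vehicle (SE, 32.5-fold lower, adjusted p = 0.00556), −3.72 ± 0.67 with nintedanib (adjusted p = 0.00593) and −3.38 ± 0.67 with B20 (adjusted p = 0.0116). Fabp3 encodes the fatty acid binding protein of heart and muscle. It stood at 4.98, 3.17, 3.45 and 1.81 in T0, −1.87, −1.48 and −0.62 with vehicle, 3.87, 0.21, 0.85 and −1.75 with B20, and −1.60, 0.29, 0.77 and −2.07 with nintedanib. B20 replicate 1 reached the T0 range and was also the array with the highest Ckm. Fabp3 fell by 4.68 ± 1.11 with vehicle (25.6-fold, adjusted p = 0.0307) and by 4.0 ± 1.03 with nintedanib (adjusted p = 0.0255). In B20 the difference of −2.55 ± 1.03 did not pass (adjusted p = 0.132). Both Fabp3 probes went the same way in each comparison.

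The 250 bases before the RefSeq start of Cd36 (GRCm38.p6, chr5:17835897-17836146, minus strand, printed 5′ to 3′) are shown because this gene had the largest difference in vehicle. The nuclear receptor motif AGGTCA, read here on the other strand as TGACCT, is in capitals. The window of Acadm (chr3:153944644-153944893, minus strand) is shown beside it, since PPARs are known to act on fatty acid oxidation genes through such motifs.
Cd36: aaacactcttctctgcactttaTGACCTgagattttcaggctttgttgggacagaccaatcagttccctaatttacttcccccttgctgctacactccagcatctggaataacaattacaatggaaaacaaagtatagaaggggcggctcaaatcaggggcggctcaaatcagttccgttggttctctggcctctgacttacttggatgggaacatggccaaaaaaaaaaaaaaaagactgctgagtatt
Acadm: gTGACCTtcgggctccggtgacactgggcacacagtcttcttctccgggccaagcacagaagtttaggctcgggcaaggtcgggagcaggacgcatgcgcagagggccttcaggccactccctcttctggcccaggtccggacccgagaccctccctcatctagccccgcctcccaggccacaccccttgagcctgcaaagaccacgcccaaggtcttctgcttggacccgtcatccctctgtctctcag
On either strand, AGGTCA was found in 6 of the 32 windows of the 29 matched members: those of Cd36, Acadm, Acadvl, Acsl6, Cpt1a and Echs1. It occurs in 14% of all 32851 windows of the same length. The direct repeat AGGTCANAGGTCA was in none of the member windows and in 0.0335% of all. The longer motif TCAAGGTCA, which contains the shorter motif, was in the Acsl6 window and in 0.387% of all. Among the 6 genes with AGGTCA, Cd36 passed against T0 in every group and the other 5 passed in none. No promoter sequence is given for Hsd17b4, Cpt1b, Decr1, Crat and Acaa2.

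Activation to acyl-CoA, done by the long-chain acyl-CoA synthetases, was not uniform. Acsl1, the main isoform of fat, liver and muscle, stood at 5.97, 5.53, 4.66 and 4.42 in T0 and at 2.95, 3.15 and 2.95 with vehicle. It stood at 3.65, 3.06, 3.66 and 3.33 with B20 and at 3.20, 3.36, 3.42 and 3.97 with nintedanib. All T0 arrays lay above all others, and the difference was −2.13 ± 0.33 with vehicle (adjusted p = 0.0062), −1.66 ± 0.30 with nintedanib (adjusted p = 0.00662) and −1.72 ± 0.30 with B20 (adjusted p = 0.00803). The 2 Acsl1 probes gave like values (−1.97 to −2.13 with vehicle). Acsl4, the isoform that prefers arachidonic acid, went the other way. Its level was 5.16 ± 0.54 (SD, n = 4) in T0, 6.0 ± 0.13 (n = 3) with vehicle, 6.22 ± 0.49 (n = 4) with B20 and 5.99 ± 0.18 (n = 4) with nintedanib. It rose by 1.06 ± 0.27 in B20 (SE, adjusted p = 0.0298), while the differences of 0.84 ± 0.29 with vehicle and 0.83 ± 0.27 with nintedanib did not pass. B20 overlapped with T0, whose replicate 4 stood at 5.90 against 5.60 on B20 replicate 1. Acsl6 was well above background on 3 T0 arrays and on B20 replicate 1, and Acsl3 and Acsl5 differed from T0 by at most 0.38 in any group.

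The carnitine shuttle held 1 gene that passed. Cpt2, the inner-membrane carnitine palmitoyltransferase, fell by 1.13 ± 0.28 with nintedanib (adjusted p = 0.0205), from 3.63 ± 0.74 (SD, n = 4) in T0 to 2.50 ± 0.03 (n = 4). Its other, dimmer probe was higher by 0.24 in that comparison, so the direction rests on the brighter probe. With vehicle Cpt2 was 2.76 ± 0.20 (n = 3) and with B20 2.74 ± 0.12 (n = 4). Cpt1b, the muscle and heart form of the outer-membrane transferase that limits entry of fatty acids, spread most. It stood at 3.13, 1.48, −1.76 and −2.95 in T0, −4.16, −4.20 and −2.93 with vehicle, −0.17, −2.36, −1.79 and −2.88 with B20, and −3.47, −3.82, −2.12 and −3.67 with nintedanib. T0 replicates 1 and 2, which had the most Ckm among the T0 arrays, lay far above replicates 3 and 4, which lay among the later arrays. Its difference of −3.74 ± 1.16 with vehicle did not pass (adjusted p = 0.0801). The widely expressed form Cpt1a differed by −0.67 to −0.30 across the 3 groups. Crot, the peroxisomal octanoyltransferase, was higher than T0 by 0.43 to 0.68, with no group passing. Crat, the carnitine acetyltransferase, was lower by 0.49 to 1.13 in the group means, also without passing.

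Among the acyl-CoA dehydrogenases, which open each round of oxidation and differ in the chain length they prefer, Acadl for long chains passed in all 3 groups. It stood at 3.42, 2.52, 2.35 and 2.56 in T0, 1.42, 1.63 and 1.25 with vehicle, 1.79, 1.70, 1.71 and 1.34 with B20, and 1.27, 1.19, 1.42 and 1.35 with nintedanib. No later array reached the T0 range. The difference was −1.28 ± 0.23 with vehicle (adjusted p = 0.00987), −1.40 ± 0.21 with nintedanib (adjusted p = 0.00357) and −1.08 ± 0.21 with B20 (adjusted p = 0.0113). Acadvl for very long chains was 6.29 ± 0.67 (SD, n = 4) in T0, 5.77 ± 0.08 (n = 3) with vehicle, 5.76 ± 0.10 (n = 4) with B20 and 5.49 ± 0.08 (n = 4) with nintedanib. T0 replicate 1 was highest, at 7.23, against 5.75 to 6.29 on the other T0 arrays, and no difference passed. Acadm for medium chains was lower than T0 by 0.93 ± 0.32, 0.91 ± 0.29 and 0.63 ± 0.29 in vehicle, nintedanib and B20 and did not pass. Acads for short chains was higher in each group by at most 0.34.

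In the later steps of the cycle, Hadhb, the thiolase subunit of the mitochondrial trifunctional protein, fell in 2 groups. It stood at 6.44, 5.30, 4.78 and 4.84 in T0, 4.18, 4.33 and 3.94 with vehicle, 4.44, 4.46, 4.32 and 4.18 with B20, and 3.77, 4.08, 4.23 and 4.24 with nintedanib. The lowest T0 array was above the highest later array. The difference was −1.19 ± 0.32 with vehicle (adjusted p = 0.0484), −1.26 ± 0.30 with nintedanib (adjusted p = 0.0177) and −0.99 ± 0.30 with B20 (adjusted p = 0.0516). The vehicle call is close to the threshold and was kept under 7 of 31 other settings, whose adjusted p ran from 0.004 to 0.975. Hadha encodes the partner subunit, with the hydratase and the long-chain dehydrogenase. Its level was 1.74 ± 0.38 (SD, n = 4) in T0, 1.45 ± 0.65 (n = 3) with vehicle, 1.35 ± 0.35 (n = 4) with B20 and 1.43 ± 0.17 (n = 4) with nintedanib. The differences from T0, −0.29 ± 0.30 with vehicle, −0.39 ± 0.27 with B20 and −0.32 ± 0.27 with nintedanib, did not pass, and whether Hadha and Hadhb differed from each other in this was not tested.

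Hadha and Hadhb stand head to head, with RefSeq starts 273 bases apart, so they share the stretch between them. The part of it that lies in both upstream windows (GRCm38.p6, chr5:30155003-30155230, plus strand, Hadhb reading to the right) is shown because Hadhb passed in some groups and Hadha in none. Whether the partner subunits differed from each other was not tested. The GC box GGGCGG is in capitals.
Hadha-Hadhb: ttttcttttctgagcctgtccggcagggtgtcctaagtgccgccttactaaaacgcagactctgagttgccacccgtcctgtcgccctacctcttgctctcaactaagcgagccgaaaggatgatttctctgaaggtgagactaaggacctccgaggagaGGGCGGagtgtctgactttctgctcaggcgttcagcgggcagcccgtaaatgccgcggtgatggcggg
A GC box on either strand was in 23 of the 32 member windows, from 21 genes, and in 32.7% of all windows. The other genes of these steps did not pass in any group. Acaa2, the thiolase of the matrix, was 5.80 ± 0.54 (SD, n = 4) in T0, 4.86 ± 0.53 (n = 3) with vehicle, 4.97 ± 0.41 (n = 4) with B20 and 4.92 ± 0.35 (n = 4) with nintedanib. Echs1, the short-chain hydratase, and Hadh, the short-chain dehydrogenase, were lower than T0 in each group by 0.09 to 0.92.

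Unsaturated fatty acids need isomerases and a reductase. Decr1, the mitochondrial dienoyl-CoA reductase, was 5.88 ± 0.73 (SD, n = 4) in T0, 4.98 ± 0.18 (n = 3) with vehicle, 5.14 ± 0.28 (n = 4) with B20 and 4.72 ± 0.36 (n = 4) with nintedanib. It fell by 1.16 ± 0.31 with nintedanib (SE, adjusted p = 0.0302), and the other probe was lower by 0.42 there. The isomerases Eci1 and Eci2 were lower than T0 in each group by 0.18 to 0.48 and did not pass.

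Electrons from these dehydrogenases pass through the electron transfer flavoprotein, made of Etfa and Etfb, to the quinone reductase Etfdh. Etfdh was 4.62, 3.60, 3.69 and 3.87 in T0, 3.1, 3.09 and 2.79 with vehicle, 3.06, 3.12, 2.84 and 2.64 with B20, and 2.60, 3.11, 2.79 and 2.99 with nintedanib. The T0 arrays lay above all others, by 0.95 ± 0.24 on average over vehicle. As differences from T0 this was −0.95 ± 0.24 with vehicle (adjusted p = 0.037), −1.07 ± 0.22 with nintedanib (adjusted p = 0.0102) and −1.03 ± 0.22 with B20 (adjusted p = 0.015). Etfa fell by 1.08 ± 0.21 with nintedanib (adjusted p = 0.00888), from 6.02 ± 0.38 (SD, n = 4) to 4.94 ± 0.27 (n = 4). Its differences of −0.76 with vehicle and −0.52 with B20 did not pass. On the other Etfa probe the differences were −0.996 with vehicle, −0.875 with B20 and −0.747 with nintedanib. The order of the groups thus depends on the probe. Etfb was 6.68 ± 0.62 (n = 4) in T0, 6.14 ± 0.03 (n = 3) with vehicle, 6.29 ± 0.21 (n = 4) with B20 and 5.84 ± 0.28 (n = 4) with nintedanib, with no group passing.

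Acot2, a mitochondrial thioesterase that frees fatty acids from coenzyme A, stood at −1.15, −1.50, −0.63 and −0.82 in T0 and at −2.38, −1.76 and −3.12 with vehicle. It stood at −1.82, −1.98, −1.86 and −2.43 with B20 and at −2.41, −2.13, −2.11 and −1.65 with nintedanib. The groups did not overlap with T0, and unlike most members it was highest on T0 replicates 3 and 4. The difference was −1.40 ± 0.31 with vehicle (adjusted p = 0.0229), −1.05 ± 0.28 with nintedanib (adjusted p = 0.0319) and −1.0 ± 0.28 with B20 (adjusted p = 0.0433). The call was kept under 20 of 31 other settings in vehicle, 18 in nintedanib and 11 in B20, where the adjusted p ran from 0.0256 to 0.363. Acot2 has a near-identical neighbour, Acot1, whose transcript the probe could also bind. Probe sequences were not given, so this was not tested.

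Peroxisomal oxidation was represented by 4 genes. Hsd17b4, the multifunctional enzyme for very long and branched chains, had narrow groups. It stood at 4.75, 4.51, 4.44 and 4.54 in T0, 4.13, 4.16 and 4.19 with vehicle, 3.83, 3.85, 4.07 and 3.92 with B20, and 3.64, 3.91, 3.59 and 3.99 with nintedanib. T0 lay above vehicle, and vehicle lay above every array of either drug. Hsd17b4 fell by 0.77 ± 0.13 against T0 with nintedanib (adjusted p = 0.00534) and by 0.64 ± 0.13 with B20 (adjusted p = 0.0143), while the difference of −0.40 ± 0.15 with vehicle did not pass (adjusted p = 0.127). Acaa1a, the peroxisomal thiolase, was 6.14 ± 0.17 (SD, n = 4) in T0, 6.11 ± 0.14 (n = 3) with vehicle, 6.05 ± 0.16 (n = 4) with B20 and 5.95 ± 0.10 (n = 4) with nintedanib. Ehhadh, the bifunctional enzyme for straight chains, and Acox3, an oxidase of branched chains, did not pass, and the 2 Acox3 probes differed in sign against T0 in all 3 groups.

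The nuclear receptors Ppara and Ppard, which switch on many of these enzymes when bound by fatty acids, did not pass in any group. Ppard was 1.02 ± 0.45 (SD, n = 4) in T0, 0.58 ± 0.55 (n = 3) with vehicle, 0.25 ± 0.30 (n = 4) with B20 and 0.94 ± 0.66 (n = 4) with nintedanib. Ppara stood above 0 on T0 replicates 1 and 2 alone, at 1.13 and 0.15. The Ppara values are those of the brightest of 3 probes, with differences from T0 of −0.64 in vehicle, −0.59 in nintedanib and −0.47 in B20. The other probes were farther below T0, with differences of −3.04 and −3.54 in vehicle, −2.04 and −2.44 in nintedanib and −2.43 and −2.34 in B20. No adjusted p was computed for these probes, so the size of the Ppara difference depends on the probe.

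The drugs were compared with vehicle to ask whether blocking VEGF signalling altered these genes in the tumours. None of the 34 genes passed with nintedanib or with B20 at the limma test's adjusted p under 0.05, as for all genes tested, of which 0% passed in either comparison. At an unadjusted p under 0.05, 1 member passed in each, beside 4.83% of all genes for nintedanib and 3.25% for B20. With nintedanib 15 genes were higher and 19 lower, with a median difference of −0.05 (−0.01 over all genes), while quantile normalisation gave 18 higher and 16 lower and the authors' deposited log2 values 17 and 17. With B20 24 genes were higher and 10 lower, with a median of 0.15 (0.04 over all genes), and 23 to 26 were higher under the other scalings and background correction. Fully separate groups were seen for 4 members with nintedanib (7.36% of all genes) and 3 with B20 (5.4%).

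**Figure D3:**
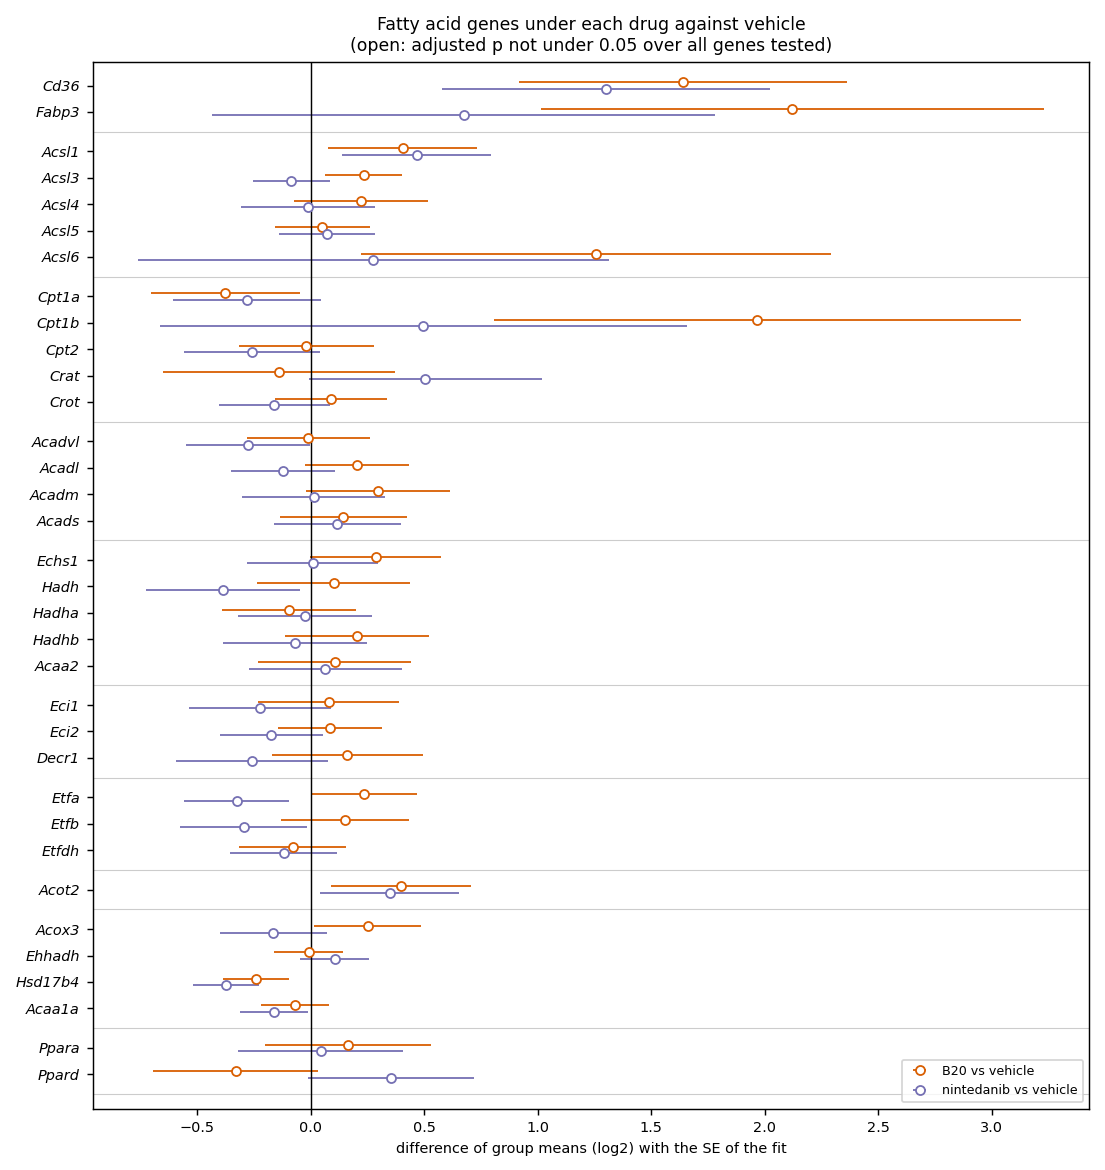
Difference of B20 and nintedanib from vehicle (x axis, log2, with the SE of the fit) for the 34 genes, in the same order by role. All points are open because none passed; Cd36, Fabp3, Cpt1b and Acsl6 have the widest spread.

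The lowest p with nintedanib belonged to Hsd17b4, whose difference was −0.37 ± 0.15 (adjusted p = 0.975 in limma), with all 4 nintedanib arrays below the 3 vehicle arrays. Cd36 was higher by 1.30 ± 0.72 (adjusted p = 0.999), and 1 of the 4 nintedanib arrays lay below the vehicle median. Acsl1 was higher by 0.47 ± 0.33 (adjusted p = 0.999), with all 4 arrays above vehicle by a narrow margin. On the slide with 8 arrays these differences were −0.43 for Hsd17b4, 1.14 for Cd36 and 0.27 for Acsl1. On the slide with 3 arrays they were −0.19, 2.09 and 1.02, from 1 array per group.

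With B20 the lowest p belonged to Cd36, at 1.64 ± 0.72 (adjusted p = 0.998 in limma), followed by Fabp3 at 2.12 ± 1.11 and Cpt1b at 1.97 ± 1.16 (both adjusted p = 0.998). The Cpt1b arrays were fully above vehicle, at −0.17 to −2.88 against −2.93 to −4.20. On the slide with 8 arrays Cd36, Fabp3 and Cpt1b were higher by 2.36, 3.32 and 2.75. On the slide with 3 arrays, 1 array per group, the values were −0.20, −1.12 and 0.05. Adipoq moved with them, by 3.02 ± 0.98 with B20 and 2.48 ± 0.98 with nintedanib, and Ckm by 2.99 ± 1.68 and 1.74 ± 1.68, none past the threshold. All 10 adipocyte markers were higher than vehicle with each drug, by a median of 2.60 with B20 and 2.40 with nintedanib, and none passed. Muscle markers were higher in 13 of 13 with B20 and 12 of 13 with nintedanib. With Adipoq as a covariate the sign turned for Cd36, to −0.29 with B20 and −0.29 with nintedanib, and for Cpt1b with B20, to −0.14, while Acsl1 with nintedanib was at −0.0057.

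Between the drugs, 7 genes were higher and 27 lower with nintedanib than with B20, with a median of −0.25 (−0.04 over all genes), while normexp gave 10 and 24 and quantile normalisation and the authors' deposited log2 values 11 and 23. On the slide with 8 arrays 4 genes were higher, with a median of −0.27, and on the slide with 3 arrays 19 were, with a median of 0.06. None passed, as for 0% of all genes, and 1 had an unadjusted p under 0.05, beside 9.39% of all genes. That gene was Etfa, at −0.56 ± 0.21 (adjusted p = 0.517 in limma). All nintedanib arrays of Etfa, from 4.72 to 5.29, lay below the B20 arrays, from 5.38 to 5.72, but its other probe differed by 0.13 in the opposite direction. Acsl3 differed by −0.32 ± 0.16 and Ppard by 0.69 ± 0.34 (both adjusted p = 0.551), with overlapping arrays. The groups were fully apart for 5 members, all lower with nintedanib, beside 5.74% of all genes, 3.62% as lower.

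The fatty acid genes were then set against the fat and muscle marks on the same arrays. Because every T0 array had more Adipoq than any later array, relations are given within the 11 arrays of the end of treatment as well as over all 15. Permutation p-values were adjusted over 68 relations. Cd36 followed Adipoq closely within the 11 arrays (Pearson r = 0.903, p = 3e-05, adjusted p = 0.0017, and Spearman rho = 0.945, p = 5e-05, adjusted p = 0.0034, in 100000 permutations). Over all 15 arrays r was 0.954 and rho 0.979. These pooled values also hold the shift between T0 and the later arrays, so no p is given for them. Without T0 replicate 1 and vehicle replicate 1, the arrays farthest from the median, r was 0.968. As deviations from the group means it was 0.875 (adjusted p = 0.003). Acsl1 had r = 0.869 over 15 arrays and r = 0.717 within the 11, where it did not pass (adjusted p = 0.165 by permutation). Whether these values differ was not tested. Over 15 arrays 17 of the 34 genes had an adjusted p under 0.05 with Adipoq, 16 of them positive and Acsl4 negative (r = −0.716). Within the 11 arrays only Cd36 did. Correlations were run for the members alone, so no share over all genes stands beside these counts. The count over 15 arrays also holds the T0 shift and is not read as particular to these genes.

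Ckm was related to other members. Within the 11 arrays Fabp3 rose with Ckm (r = 0.953, p = 5e-05, adjusted p = 0.0017, and rho = 0.882, p = 0.00071, adjusted p = 0.0241, by permutation). Cpt1b did so by r (0.906, p = 0.00045, adjusted p = 0.0102, by permutation), while its rho of 0.773 missed the threshold (adjusted p = 0.171). Acsl6 likewise passed by r (0.883, p = 0.00157, adjusted p = 0.0267, by permutation) and not by rho (0.673, adjusted p = 0.368). Over all 15 arrays 6 genes passed, again with no share over all genes to set beside the count. Without T0 replicate 1 and B20 replicate 1 these same 3 passed, with r = 0.759 for Fabp3, 0.826 for Cpt1b and 0.754 for Acsl6. Acsl6 was well above background on 4 of the 15 arrays, and among the 11 on B20 replicate 1 alone, which also had the highest Ckm. Its relation there is that of 1 array to values at background. Adipoq and Ckm were themselves correlated over the 15 arrays (r = 0.664 and rho = 0.593, the T0 shift included), which limits how far the marks can be told apart.

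**Figure D4:**
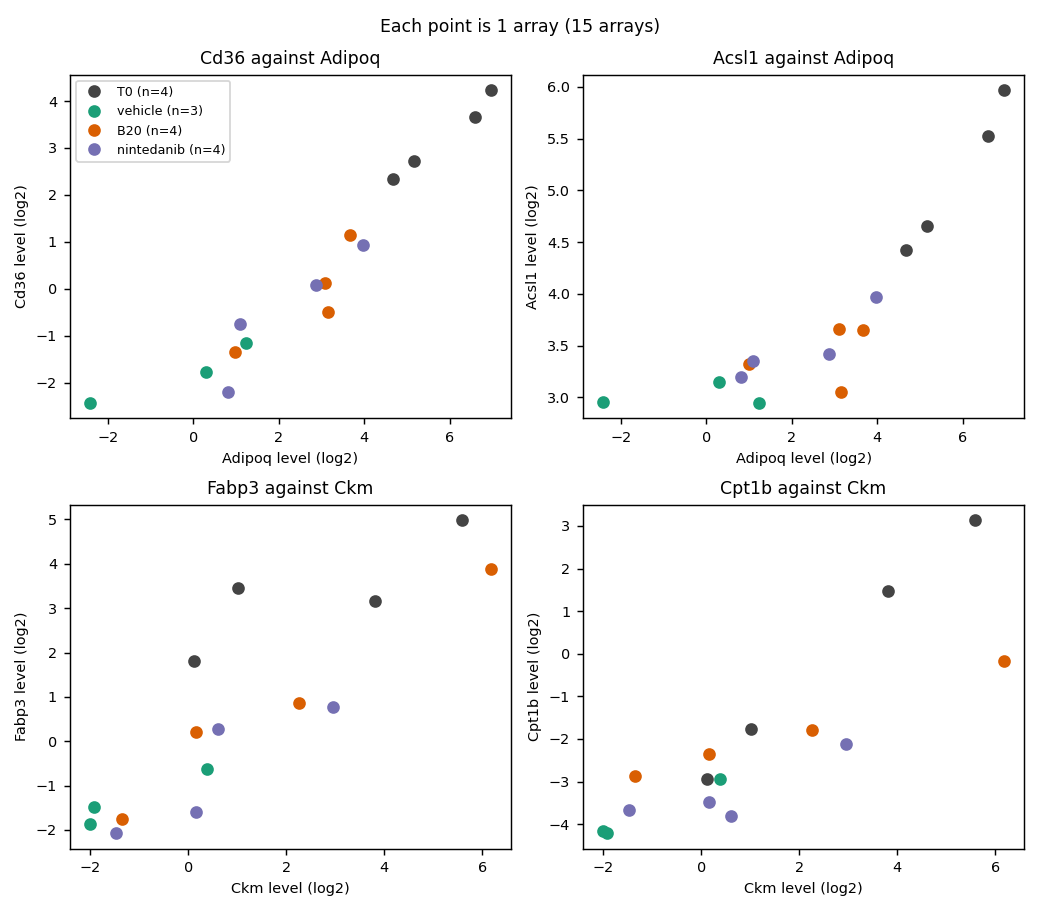
Levels of Cd36 and Acsl1 against Adipoq and of Fabp3 and Cpt1b against Ckm (both axes log2), 1 point per array, coloured by group. Cd36 rises along the whole range of Adipoq (r = 0.954 over 15 arrays, the T0 shift included), while the T0 arrays of Acsl1 stand above the later arrays. At like Ckm the T0 arrays lie above the later arrays for Fabp3.

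A linear model with the group means and a mark gave the change per log2 unit of the mark within groups, tested over 28025 genes. Cd36 rose by 0.64 ± 0.11 per unit of Adipoq (SE), just short of the threshold (limma, adjusted p = 0.0578), and no member passed, beside 0.0749% of all genes. Cpt1b and Etfa had the next lowest p, with slopes of 0.70 ± 0.27 and 0.15 ± 0.05 (adjusted p = 0.743 and 0.668). On Ckm 3 members passed, all positive, beside 0.864% of all genes, 0.849% as positive and 0.0143% as negative: Fabp3 at 0.60 ± 0.08 (adjusted p = 0.00072), Acsl6 at 0.54 ± 0.08 (adjusted p = 0.00512) and Cpt1b at 0.59 ± 0.10 (adjusted p = 0.0118). The Acsl6 slope rests on values at background on 11 arrays, and a filter of 8 arrays well above background leaves Acsl6 out and 2 members passing. With both marks in 1 fit, Fabp3 alone passed (adjusted p = 0.0075), on the slide of 8 arrays Acsl6 alone, and with the replicate number as a block none. Without nintedanib replicate 4, 5 members passed. Counts over all genes in these other fits are not reported here, so the changes are not read as particular to the members. The median slope of the 34 genes was 0.09 on Adipoq and 0.06 on Ckm, against −0.01 and −0.02 over all genes.

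With the Adipoq level as a covariate, no member passed against T0 in any group, and over all genes tested 0 passed in vehicle, 9 in nintedanib and 17 in B20. In the 3 groups the median difference of the 34 genes moved from −0.54 to 0.03 in vehicle, from −0.78 to −0.33 in nintedanib and from −0.58 to −0.11 in B20. The genes that had passed kept their sign, 7 of 7, 11 of 11 and 7 of 7. Cd36 became −1.09 ± 0.75 in vehicle, −1.37 ± 0.52 in nintedanib and −1.38 ± 0.48 in B20. Acadl changed less, to −0.72 ± 0.43, −1.07 ± 0.30 and −0.79 ± 0.28, and Hsd17b4 was −0.67 ± 0.20 in nintedanib and −0.56 ± 0.19 in B20. The SE of Acadl in vehicle was 0.43 with the covariate and 0.23 without it, as every T0 array had more Adipoq than any later array. With Ckm as the covariate, 1 member passed in vehicle, 10 in nintedanib and 9 in B20. The counts over all genes in that fit are not reported here, so these counts are not read as particular to the members. The single covariates and the fits without a T0 slide were chosen after seeing the data, and the part of fat content in the T0 differences was not tested beyond these fits.

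**Figure D5:**
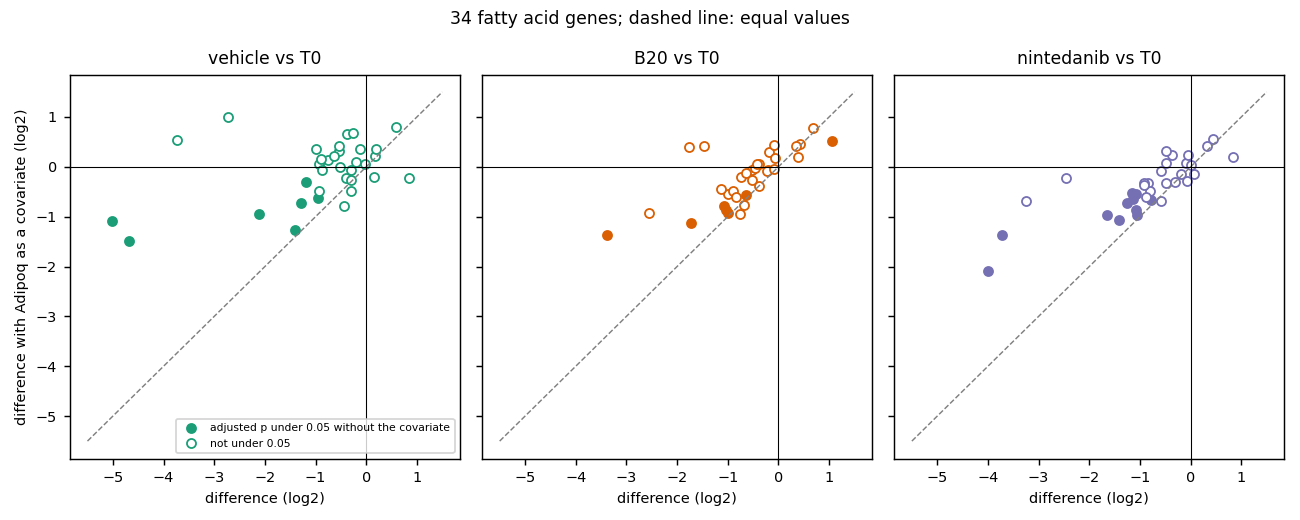
Difference from T0 of the 34 genes without a covariate (x axis, log2) and with Adipoq as a covariate (y axis, log2), for each end-of-treatment group. Filled points passed without the covariate, none passed with it, and points above the dashed line at the left, such as Cd36 at −5.02 and −1.09 in vehicle, became smaller.

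Other genes of fatty acid handling, a list of 42 that share the pathway, were counted the same way. Against T0, 9 passed in vehicle (8 lower, 1 higher), 14 in nintedanib (13 lower, 1 higher) and 11 in B20 (all lower), with medians of −0.60, −0.43 and −0.58. Over all genes tested 4.92%, 11.4% and 9.51% passed, with medians of 0.04, 0.01 and 0.08. The lower ones in all 3 groups included Fabp4, the binding protein of fat cells (−4.89 ± 0.72 with vehicle), and Lpl, the lipase that frees fatty acids from lipoproteins (−3.92 ± 0.64). Pparg, the nuclear receptor of fat cell formation (−3.59 ± 0.66 with vehicle), Acacb, the carboxylase whose product inhibits carnitine transfer (−2.97 ± 0.58), and Angptl4, an inhibitor of Lpl (−2.13 ± 0.43), were also lower in each. So were Slc27a6 and Abcd2, transporters of fatty acids, which were well above background on all 4 T0 arrays but on 2 and 1 of the 3 vehicle arrays, so that their lower levels are near the floor and no size is given. The remaining calls were, in vehicle, Pdk4, a kinase that spares glucose (−4.56 ± 1.18), and Slc27a3 (0.64 ± 0.17). In nintedanib they included Gpihbp1, Plin2, Slc27a2, Acot1 and Acot13, all lower by 0.78 to 2.70, and Cpt1c, which was higher by 0.95 ± 0.26. In B20 they were Gpihbp1, Plin2 and Acss1, with differences of −1.59 to −0.61, and Ppargc1b, which was not well above background on any B20 array and so has only a bound there. Against vehicle none of the 42 passed with either drug. Among the lowest p with nintedanib were those of Slc27a3 (−0.47 ± 0.17) and Fabp4 (1.41 ± 0.72), and the lowest with B20 were those of Fabp4 (2.12 ± 0.72), Pdk4 (2.24 ± 1.18) and Lpl (1.14 ± 0.64).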

How the data were processed

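RNA of 15 tumours was hybridised to 1-colour Agilent arrays labelled with Cy3, from 0.5 ug of RNA each, per the labels' protocols. Per the file headers, Feature Extraction 10.7.3.1 read the arrays (design 028005) and subtracted the background. The values used are the spot intensity (processed signal) the authors deposited, with no scaling between arrays, and other values deposited per the file headers are 0 or 1 flags for spots well above background and outlier spots. The authors' table of the series holds deposited log2 values, used as an alternative. How they were made is not stated in the labels, but arrays corrected by normexp and quantile normalised here matched them with a median r of 0.99992. Their column medians were 6.616 to 6.627, so they are uncentred log2 values in which brighter is higher.

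Here control and outlier spots were dropped, spots of a probe averaged (82 array values were filled with the mean of the probe on the other arrays) and log2 signals scaled by the 75th percentile of the array. Probes well above background on at least 3 arrays were kept, and the brightest probe stood for a gene. Probes were named through RefSeq genes (GRCm38.p6), and promoter windows come from RefSeq on that build. In R 4.3.3, limma 3.58.1 fitted 4 group means over 15 arrays, with two-sided tests, Benjamini-Hochberg adjustment over 28026 genes and a threshold of 0.05. The script was tested on simulated data. The labels do not say that samples of a group are separate animals, so p-values cover only the variation among these samples, and that may be technical. No slide holds both T0 and later arrays. Over all genes tested, differences had a median SE of 0.29 (log2) between 4 and 3 arrays and of 0.269 between 4 and 4.

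The members and lists were chosen with earlier results of these data known. Values and errors are given for each member that passed in a comparison, or the 3 with the lowest p where none did, for 1 further member per role with the highest mean signal, and for the listed other fatty acid genes that passed. Other members named were chosen after their values were seen. Some genes of the other fatty acid list are counted but not reported here by name. Arrays with the same replicate number did not vary together (r of deviations from −0.25 to 0.38 over 21 pairs), so the numbers were not taken as pairs. Alternatives changed the background correction, scaling, filter, probe rule, block, weights, covariates and the arrays used. Normexp used the median spot signal in place of the mean.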

Additional observations from a re-analysis of the deposited data

How the results depend on the processing

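No drug comparison gave a passing member under any of the alternatives run. For vehicle, nintedanib and B20 against T0, 7, 11 and 7 members passed, beside 1380, 3207 and 2664 over all genes. Median scaling gave 3, 4 and 2, beside 680, 1366 and 1185 over all genes. A fit of only the groups compared gave 1, 7 and 2, beside 17, 1454 and 978. Array weights gave 19 in each, beside 5274, 7920 and 6061. Both marks as covariates gave 0 in each, beside 0, 12 and 94 over all genes. Adipoq alone gave 0 in each, beside 0, 9 and 17 over all genes. Leaving out T0 slide 1 gave 3, 4 and 1 and leaving out T0 slide 2 gave 17, 18 and 16. For vehicle the replicate block gave 4, with 1221 passing over all genes, and Ckm as a covariate 1, whose count over all genes is not reported here. Leaving out 1 array gave 3 to 11 in vehicle, 6 to 16 in nintedanib and 4 to 9 in B20. Counts over all genes moved too, in vehicle to 522 without T0 replicate 1 and to 1953 without T0 replicate 3. The replicate block changed no other count against T0 by over 1.5 times. With Adipoq as a covariate Cd36 reversed against vehicle, to −0.29 with nintedanib and −0.29 with B20, as did Cpt1b with B20 (−0.14) and Acsl1 with nintedanib (−0.0057). With both marks Cd36 was −0.24 with nintedanib and −0.32 with B20, and Cpt1b −0.29 with B20. The cause was not tested. Members with a slope on Adipoq numbered 1 in place of 0 with normexp, quantile normalisation, median scaling, the authors' values, the stricter filter and the mean of the other markers, and 0 to 1 when 1 array was left out. On Ckm, in place of 3, 1 passed on the slide of 8 arrays, 0 with the replicate block, 1 with both marks in 1 fit, and 2 to 5 when 1 array was left out. Counts over all genes for these slope alternatives are not reported here, so the shifts are not read as particular to the members. Correlations were run for the members alone, so their counts have no share over all genes beside them. Of the 17 correlated with Adipoq, 2 passed as deviations from group means, 1 on the slide of 8 arrays and 1 over 11 arrays. For Ckm, in place of 6, 3 passed without the 2 farthest arrays, 3 as deviations, 3 over 11 arrays, 13 with the authors' values and 14 after quantile normalising. Normexp moved the median of all genes between the drugs to −0.16. With 3 or 4 arrays a group and 2 slides for T0, the number of arrays limits what can be shown. Acsl6, dim on 11 arrays, has little more than background there.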
